A study of Mus musculus with 10 samples.

Results

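The cathepsin genes examined here were Ctsa, Ctsb, Ctsc, Ctsd, Ctse, Ctsh, Ctsl, Ctss, Ctsw and Ctsz, 10 of the 49671 genes in a count table of mouse TH2 cells. They were taken by symbol through their Ensembl IDs, and all 10 had enough counts to be tested among 13699 genes. The genes were chosen by symbol with their CPM and fold changes between the 2 diets already in view, so their differences between the diets are a description. No p-value is given for them in that comparison, and where the text says that a member lay past the threshold of the fit over all genes, this is not evidence for a difference. TH2 cells are the helper T cells of allergy and worm infection, and their RNA was taken on day 5 of polarisation. The deficient group (7 libraries) came from C57BL/6 mice bred and reared without UV light on a diet lacking vitamin D metabolites, and the regular group (3 libraries) from C57BL/6 mice kept the same way but given vitamin D3 in a standard feed (400 IU per kg). Both groups carry the genotype label WT and were second-generation offspring. Batch 1 held 5 deficient and 2 regular libraries, and batch 2 held 2 deficient and 1 regular library. The labels do not give the age of the mice or say that each library came from a separate mouse, so errors and p-values cover only the spread from library to library, which may be technical.

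Cathepsins are proteases that are made as inactive precursors, sorted to endosomes and lysosomes, and switched on there in acid. Most are cysteine proteases of the papain family, whereas cathepsins D and E are aspartic proteases and cathepsin A is a serine carboxypeptidase. They degrade proteins taken up or delivered by autophagy, trim antigens and the invariant chain of MHC class II, and, in cytotoxic lymphocytes, activate granule proteases.

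Depth ran from 5800698 to 13433276 counts per library, and the 3 regular libraries were the shallowest. Levels are CPM, counts scaled to each library's total. T cell markers were present in every library, with a sum over 6 genes of 1221 to 1454 CPM in deficient libraries against 1920 to 1949 CPM in regular libraries. Of the 6, 5 fell, where 28.6% of all genes did. The sum over 6 TH2 markers was 296 to 405 CPM in deficient libraries, against 294 to 342 CPM in regular libraries, and the groups overlapped. Of these markers Il13 and Il5 rose, Gata3, Ccr4 and Il1rl1 fell, and Il4 did not pass (log2 0.05). Markers of macrophages and monocytes, which are rich in cathepsins, summed to 1.52 to 3.71 CPM over 12 genes in deficient libraries and 1.90 to 4.65 CPM in regular libraries, and C1qa was at 0 in all of them. Deficient libraries 5, 6 and 7 stood apart from deficient libraries 1 to 4 although library 5 carries the label of batch 1, and values without these 3 libraries are given where they matter.

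The 10 genes together made up a similar share of each library's total counts under both diets, but the mixture differed. Their sum had a lowest value of 441, a median of 469 and a highest value of 504 CPM in deficient libraries. In regular libraries these were 473, 475 and 504 CPM. Ctse supplied 1.26% to 1.80% of that sum in deficient libraries and 20.3% to 23.5% in regular libraries. Without Ctse the sum was 433 to 498 CPM in deficient libraries and 371 to 385 CPM in regular libraries, and the groups did not overlap. These sums use plain totals, not the TMM scaling of the fit. The TMM factors were 0.942 to 0.971 in regular libraries and 0.994 to 1.06 in deficient libraries. Scaled that way, the regular sums would stand higher relative to the deficient ones. In cultures measured in bulk, fewer cells of a type and less RNA per cell cannot be told apart.

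**Figure D1:**
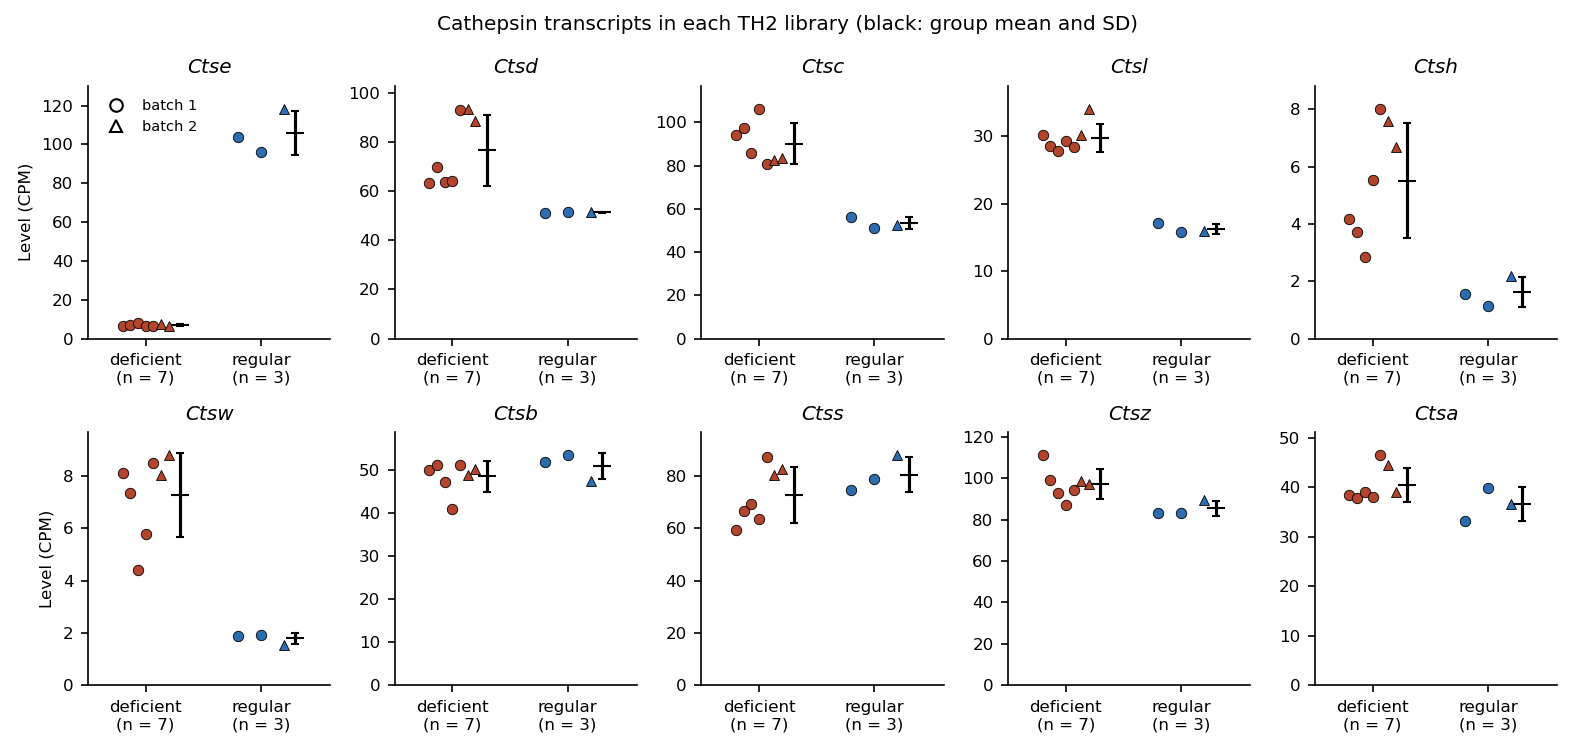
Level of each cathepsin gene in CPM in each library, deficient on the left (7 libraries) and regular on the right (3 libraries), with circles for batch 1 and triangles for batch 2; black bars are the group mean and SD and every axis starts at 0. Ctse lies between 6.33 and 7.97 CPM in deficient libraries, far below its 96.0 to 118 CPM in regular libraries, while Ctsd, Ctsc, Ctsl, Ctsh and Ctsw are higher in every deficient library and the last 4 genes overlap.

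Between the diets 5 of the 10 genes were higher past the threshold in deficient cells, 1 was lower and 4 did not pass (edgeR's quasi-likelihood test, adjusted p below 0.05). Over all genes tested, 58.0% passed, 29.4% upward and 28.6% downward. The same 6 genes were those whose groups did not overlap in CPM, which was so for 50.8% of all genes (29.4% higher and 21.4% lower). Within batch 1 alone 5 of the 10 passed, all of these but Ctsd, where 48.4% of all genes did, and within batch 2 the same 6 passed, where 46.9% did. Without deficient libraries 5 to 7 these 6 and Ctss passed, where 56.4% of all genes did. The median log2 fold change of the 10 genes was 0.30, against 0.02 over all genes tested. Because the genes were chosen from this comparison, nothing is read from these counts.

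Ctse (ENSMUSG00000004552, chromosome 1, 131638306 to 131675505 of GRCm38) encodes cathepsin E, an aspartic protease of endosomes rather than of mature lysosomes that is found in immune cells and in the stomach lining. It had a lowest value of 6.33, a median of 6.45 and a highest value of 7.97 CPM in deficient libraries. In regular libraries 1, 2 and 3 it read 104, 96.0 and 118 CPM. The deficient libraries held 55 to 97 reads of it and the shallower regular libraries 599 to 764. The log2 fold change was -4.04 (SE 0.0845), or 16.4-fold lower in deficient cells. Of the 13699 genes tested, 75 had a log2 fold change as low as this or lower, Ctse included (0.547%). It was -3.98 (SE 0.107) within batch 1, -4.15 (SE 0.136) within batch 2 and -3.96 (SE 0.107) without deficient libraries 5 to 7, so the difference was nearly as large in each subset. The nearest tested protein-coding genes on the chromosome moved far less. Fam72a, 98434 bases before Ctse, stood at 11.9 ± 2.19 CPM in deficient cells (SD, n = 7) and 15.0 ± 1.66 CPM in regular cells (SD, n = 3), and fell by 0.43 (adjusted p = 0.0291, edgeR). Slc41a1, a magnesium transporter gene 151988 bases after it, stood at 12.0 ± 1.31 CPM in deficient cells and 10.7 ± 1.49 CPM in regular cells (log2 0.08, adjusted p = 0.661, edgeR). These neighbours were chosen after the value of Ctse was seen.

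Ctsd (chromosome 7, 142375911 to 142388038) encodes cathepsin D, the main aspartic protease of lysosomes. Deficient libraries 1 to 7 read 63.4, 69.8, 64.0, 64.4, 93.4, 93.6 and 88.8 CPM, and the regular libraries read 51.2, 51.6 and 51.5 CPM. All 7 deficient libraries were above the regular ones, and libraries 5, 6 and 7 were well above the other 4. The log2 fold change was 0.49 (SE 0.128), 0.37 (SE 0.153) within batch 1, 0.77 (SE 0.110) within batch 2 and 0.26 (SE 0.0932) without deficient libraries 5 to 7; without regular library 3 it was not past the threshold. Part of its exons overlaps Gm49369, which had 0 counts in every library. Between the aspartic proteases, Ctsd was thus higher and Ctse lower in the deficient cells.

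The window of 250 bases before the RefSeq start site was examined in the 6 members that the RefSeq promoter table (GRCm38.p6) covers, namely Ctsa, Ctsc, Ctsd, Ctsl, Ctss and Ctsz. Such a window shows whether the motifs searched for, of lysosomal and immune gene control, are present. Ctsb, Ctse, Ctsh and Ctsw were not analysed here. The E-box CACGTG, the core of the site bound by TFEB, a transcription factor of lysosomal genes, was found in windows of Ctsa, Ctsd and Ctsl, 3 of the 6 genes. It was in a window of 6.86% of all 27025 genes covered. Its stretches are shown because Ctsd carries a pair of them, with the E-box in capitals and the rest in lower case.
Ctsd, 98 bases before the start site, chr7:142387910-142387935, minus strand: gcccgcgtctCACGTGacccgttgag
Ctsd, 245 bases before the start site, chr7:142388057-142388077, minus strand: tccccCACGTGacctgtatcc
Ctsa, 12 bases before the second listed start site, chr2:164833751-164833772, plus strand: agcaaactgtCACGTGatgcag
Ctsl, 236 bases before the start site, chr13:64370741-64370766, minus strand: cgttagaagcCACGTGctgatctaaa
The longer CLEAR site, the E-box with GT before it and AC after it, was in 0 of the 6 genes and in 0.270% of all genes covered. By the gene coordinates given here, the stretches of Ctsa and Ctsl lie inside the annotated gene, downstream of its outermost start. So does the Ctsd stretch at 98 bases, but not the one at 245. The window of the first listed Ctsa start site held no E-box. A match on either strand is only a run of letters, and binding was not measured. Of these 3 genes, Ctsd and Ctsl were higher in every deficient library and Ctsa was not.

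Ctsc (chromosome 7, 88278085 to 88310888) encodes cathepsin C, or dipeptidyl peptidase I, which removes the dipeptide that keeps granzymes inactive. It had a lowest value of 80.8, a median of 85.9 and a highest value of 106 CPM in deficient libraries. In regular libraries 1, 2 and 3 it read 56.4, 51.0 and 52.5 CPM. Every deficient library was above every regular one. The log2 fold change was 0.66 (SE 0.0841), and within batches it was 0.70 and 0.60. Unlike Ctsd, Ctsc was lowest in deficient libraries 5, 6 and 7, at 80.8, 82.3 and 83.3 CPM, and highest in library 4.

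Ctsw (chromosome 19, 5465043 to 5468507) encodes cathepsin W, a cysteine protease known from natural killer cells and cytotoxic T cells. It was a low gene here, with 8.11, 7.35, 4.41, 5.79, 8.50, 8.04 and 8.80 CPM in deficient libraries 1 to 7 and 1.90, 1.92 and 1.55 CPM in regular libraries, where only 10 to 12 reads stood behind each value. The lowest deficient library was more than 2 CPM above the highest regular one. Its log2 fold change was 1.95 (SE 0.269), or 3.88-fold higher, with 1.76 within batch 1, 2.37 within batch 2 and 1.68 without deficient libraries 5 to 7. Markers of CD8 T and natural killer cells moved with it between the diets: the sum of 8 genes was 149 to 520 CPM in deficient libraries and 36.9 to 80.8 CPM in regular libraries. Of the 8, 5 rose, where 29.4% of all genes did. Gzma is counted both there and among the granule proteases. Ncr1, a defining receptor gene of natural killer cells, was between 0.227 and 0.996 CPM in deficient libraries and between 0.517 and 2.01 CPM in regular libraries. Their part in the Ctsw difference was not tested.

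Ctsh (chromosome 9, 90054152 to 90076089) encodes cathepsin H, an aminopeptidase. It had the lowest group mean in CPM of the 10 genes in both groups, although it was above Ctse in deficient libraries 5, 6 and 7 and above Ctsw in regular library 3. Deficient libraries 1 to 7 read 4.17, 3.71, 2.85, 5.55, 8.01, 7.59 and 6.69 CPM, and regular libraries 1.55, 1.12 and 2.17 CPM, from 7 to 14 reads each. The groups did not overlap, and libraries 5, 6 and 7 were again the highest. The log2 fold change was 1.73 (SE 0.337), with 1.78 within batch 1, 1.67 within batch 2 and 1.54 without deficient libraries 5 to 7.

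Ctsl (chromosome 13, 64359337 to 64370890) encodes cathepsin L, an endopeptidase that also processes the invariant chain in thymic epithelium. It had a lowest value of 27.7, a median of 29.2 and a highest value of 34.0 CPM in deficient libraries. In regular libraries 1, 2 and 3 it read 17.1, 15.7 and 15.9 CPM. It was one of the most even genes of the set, with a coefficient of variation of 7.02% among deficient and 4.47% among regular libraries, and the groups lay more than 10 CPM apart. The log2 fold change was 0.79 (SE 0.0965), with 0.72 within batch 1 and 0.94 within batch 2.

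Ctss (chromosome 3, 95526786 to 95556403) encodes cathepsin S, the endopeptidase that cuts the invariant chain in B cells and dendritic cells. Deficient libraries 1 to 7 read 59.2, 66.6, 69.3, 63.5, 87.4, 80.4 and 82.7 CPM, and regular libraries 74.8, 78.9 and 87.9 CPM. Libraries 1 to 4 lay below all 3 regular libraries, while libraries 5, 6 and 7 lay among them. The log2 fold change over all libraries was -0.22 (SE 0.0967), and the gene was not past the threshold; without deficient libraries 5 to 7 it was -0.34 (SE 0.0872), and without library 5 alone -0.29, and in both cases it was. B cell markers moved with Ctss among the deficient libraries. The sum of 8 B cell genes was 55.2 to 334 CPM in deficient libraries and 12.8 to 104 CPM in regular libraries, and Cd79b, part of the B cell receptor, read 64.4, 60.1 and 69.8 CPM in deficient libraries 5, 6 and 7 against 8.39 to 16.3 CPM in libraries 1 to 4. The sum of 8 dendritic cell genes was 12.4 to 20.2 CPM in deficient libraries and 6.21 to 10.8 CPM in regular libraries. Of 3 tested, 1 rose and 2 did not pass, where 29.4% of all genes rose. The gene that rose was Zbtb46, at 12.1 ± 1.79 CPM in deficient and 4.88 ± 1.27 CPM in regular cells. The part of either set of markers in the spread of Ctss was not tested.

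The window before the Ctss start site is shown whole because cathepsin S is a known interferon-induced gene and the window holds GAAACCGAAA, a match to the interferon-response type (GAAA, 2 free bases and GAAA, on either strand), 21 bases before the start site and in capitals.
Ctss, chr3:95526536-95526785, plus strand: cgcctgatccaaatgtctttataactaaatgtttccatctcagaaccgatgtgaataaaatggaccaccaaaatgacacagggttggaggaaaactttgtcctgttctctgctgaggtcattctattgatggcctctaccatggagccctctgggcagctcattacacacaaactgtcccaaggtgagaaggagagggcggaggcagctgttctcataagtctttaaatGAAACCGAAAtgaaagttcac
That pattern was in 1 of the 6 members and in 3.46% of all genes covered. The DR3 element of the vitamin D receptor (0.0444% of all genes covered) was not found in these 6 genes, which says only that those letters are not in these windows.

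Ctsb, Ctsz and Ctsa differed little between the diets. Ctsb (chromosome 14, 63122462 to 63145923) encodes cathepsin B, an endopeptidase. It had a lowest value of 40.9, a median of 49.99 and a highest value of 51.1 CPM in deficient libraries. In regular libraries 1, 2 and 3 it read 51.9, 53.4 and 47.5 CPM. The groups overlapped for Ctsb (log2 -0.15, SE 0.0895). Of its exon bases, 774 overlap Fdft1, a gene of cholesterol synthesis on the other strand, which stood at 51.7 ± 5.28 CPM in deficient cells (SD, n = 7) and 136 ± 7.996 CPM in regular cells (SD, n = 3). Whether reads were assigned by strand is not stated in the labels, which leaves the Ctsb values uncertain, and Ctsa, Ctsl, Ctsw and Ctsz also overlap genes on the other strand. Ctsz (chromosome 2, 174427493 to 174439039) encodes cathepsin X, a carboxypeptidase. It had a lowest value of 86.9, a median of 97.5 and a highest value of 111 CPM in deficient libraries. In regular libraries 1, 2 and 3 it read 83.4, 83.2 and 89.8 CPM (log2 0.11, SE 0.0817). Only deficient library 4 lay within the regular range. Ctsa (chromosome 2, 164832873 to 164841032) encodes the protective protein that stabilises lysosomal galactosidase and neuraminidase. It had a lowest value of 37.7, a median of 39.0 and a highest value of 46.4 CPM in deficient libraries. In regular libraries 1, 2 and 3 it read 33.1, 39.9 and 36.7 CPM (log2 0.06, SE 0.0914).

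**Figure D2:**
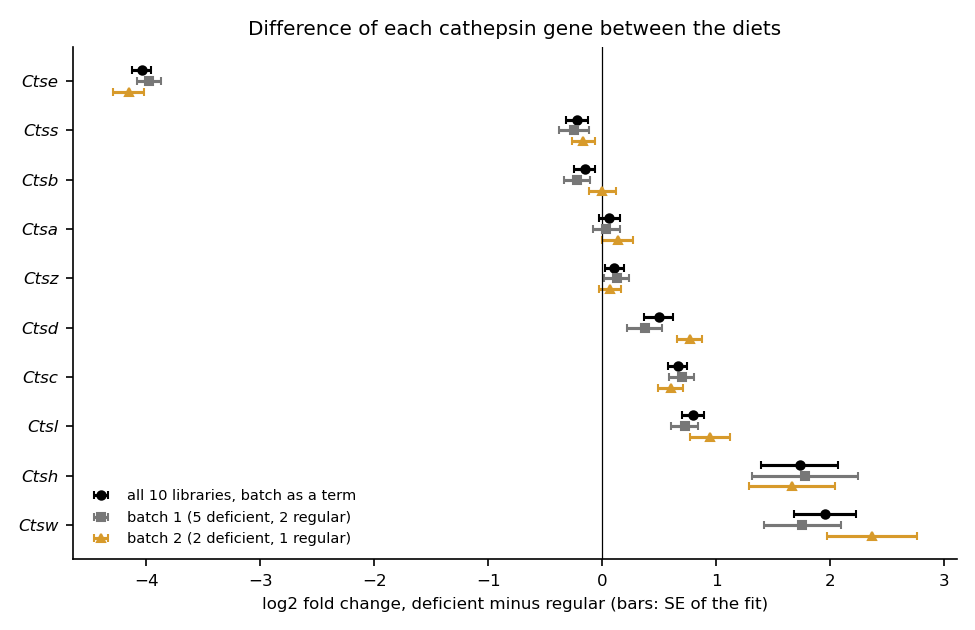
Log2 fold change (deficient minus regular) of each cathepsin gene over all 10 libraries with batch as a term (black), within batch 1 (grey) and within batch 2 (orange); bars are the standard error of the fit, and batch 2 has only 1 regular library, whose spread is taken from the deficient libraries. Ctse stands at -4.04 and Ctsw at 1.95, and the direction of all genes but Ctsb, which is at 0.00 in batch 2, is the same in both batches.

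Scaled by exon length, the order of the genes changed between the diets mainly through Ctse. In CPM per kilobase of annotated exon, Ctsz stood at 67.5 ± 5.16 in deficient cells (SD, n = 7) and 59.3 ± 2.58 in regular cells (SD, n = 3). Ctss, which stood at 53.5 ± 7.90 in deficient cells and 59.3 ± 4.93 in regular cells, overlapped Ctsz in both groups. Ctse stood at rank 9 of the 10 in deficient cells at 2.15 ± 0.196 CPM per kilobase and at rank 3 in regular cells at 33.4 ± 3.55. Ctsd stood at 32.7 ± 6.13 in deficient cells and 21.9 ± 0.0945 in regular cells, and Ctsc at 15.5 ± 1.63 in deficient cells and 9.17 ± 0.480 in regular cells. The overlap with Gm49369 leaves the level of Ctsd per kilobase uncertain, and with it the order of Ctse and Ctsd in regular cells. Ctsa and Ctsb could not be told apart in either group, at 8.58 ± 0.740 and 8.02 ± 0.599 in deficient cells and 7.76 ± 0.724 and 8.42 ± 0.505 in regular cells. Ctsl stood at 4.59 ± 0.322 in deficient and 2.50 ± 0.112 in regular cells, Ctsw at 3.86 ± 0.852 in deficient and 0.948 ± 0.111 in regular cells, and Ctsh was last in both groups, at 1.22 ± 0.446 in deficient and 0.359 ± 0.117 in regular cells. The ranges of Ctsl, Ctsw and Ctse overlapped from one to the next in deficient cells, whereas in regular cells the levels of Ctse, Ctsl and Ctsw did not overlap.

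**Figure D3:**
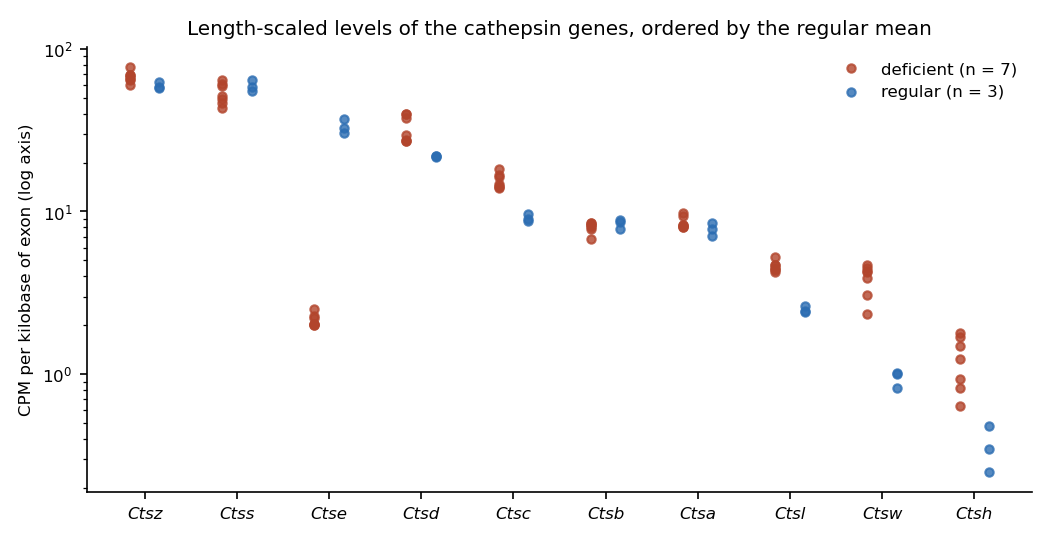
Level of each cathepsin gene in CPM per kilobase of annotated exon on a log axis, one point per library, deficient (7, left) and regular (3, right), ordered by the regular mean. Ctse lies at rank 9 among the deficient libraries (mean 2.15) and at rank 3 among the regular ones (mean 33.4), whereas Ctsz and Ctss are the highest genes in both groups. The level of Ctsd, and so its order against Ctse in regular cells, is uncertain because its exons overlap Gm49369.

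The spread among deficient libraries was not used to choose the genes, so it could be tested against the batch label. Between batch 2 (2 libraries) and batch 1 (5 libraries) of the deficient group, 0 of the 10 cathepsin genes passed, as did 0 of 13636 genes tested (0.00%; edgeR, DESeq2 and limma-voom alike), while 1247 genes had an unadjusted p below 0.05 with edgeR (9.14%). Ctsd was the cathepsin gene among them. It averaged 91.2 ± 3.44 CPM in batch 2 (SD, n = 2) and 71.0 ± 12.8 CPM in batch 1 (SD, n = 5), with a log2 difference of 0.36 (SE 0.142, adjusted p = 0.532, edgeR). That comparison rested on deficient library 5. Because leaving library 5 out follows a split already seen, the values without library 5 are a description and no test of batch. Without library 5, 1764 of 13545 genes passed (13.0%). Among them were Ctsd at 0.48 (SE 0.0757, adjusted p = 0.000318, edgeR), Ctss at 0.34 (SE 0.0797, adjusted p = 0.00783, edgeR) and Ctsh at 0.79 (SE 0.224, adjusted p = 0.0257, edgeR). Each was higher in both batch 2 libraries than in the 4 remaining libraries of batch 1. Over 15 alternatives the adjusted p of Ctsd ran from 0.000318 to 0.982, that of Ctss from 0.00783 to 0.982 and that of Ctsh from 0.0257 to 0.982. With all 7 libraries but no count filter, Ctsd alone of the 10 passed at 0.37 (adjusted p = 0.0170, edgeR). The other 7 genes did not pass without library 5, and Ctsc had a log2 difference of -0.21 (adjusted p = 0.0873, edgeR). Ctse was even, with a coefficient of variation of 9.09% among all 7 deficient libraries and a log2 difference of 0.02 (SE 0.175) between the batches.

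**Figure D4:**
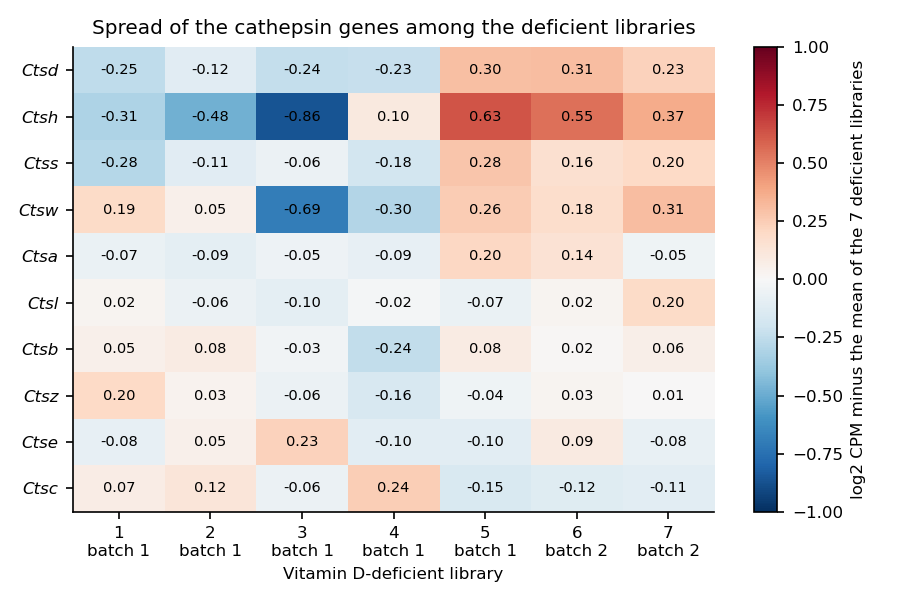
Log2 CPM of each cathepsin gene in each deficient library minus its mean over the 7 deficient libraries, with the batch label under each library. Ctsd, Ctsh and Ctss are above their mean in libraries 5, 6 and 7 (Ctsd by 0.30, 0.31 and 0.23), Ctsc is below its mean in the same 3 libraries, and Ctse and Ctsz show no such split.

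Over all 10 libraries with diet as a term, batch 2 against batch 1 gave 0 cathepsin genes and 0 of 13699 genes (0.00%; edgeR, DESeq2 and limma-voom alike), with 1039 genes (7.58%) at an unadjusted p below 0.05 with edgeR. Of the cathepsin genes, Ctss at 0.22 (SE 0.0951) and Ctsh at 0.57 (SE 0.264) were among these. Without deficient library 5, 5.29% of all genes passed in this fit, among them Ctsd at 0.34 (adjusted p = 0.0213, edgeR), Ctss at 0.29 (adjusted p = 0.0178, edgeR) and Ctsh at 0.78 (adjusted p = 0.0365, edgeR). Here too, leaving that library out follows a split already seen, and the values are a description. Whether the diet difference itself differed between the batches was tested by the product of diet and batch: 0 of the 10 genes and 0 of 14431 genes passed (0.00%; edgeR, DESeq2 and limma-voom alike), and 600 genes (4.16%) but 0 cathepsin genes had an unadjusted p below 0.05 with edgeR. The product term was largest for Ctsw at 0.61 (SE 0.607) and Ctsd at 0.39 (SE 0.253), and batch 2 has 1 regular library, which limits its precision.

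The genes most like the 3 highest members per length in their deviations from the group means over the 10 libraries are given as a description. Ctsz was most like Grn, which encodes the lysosomal protein progranulin, with a Pearson r of 0.922, and Pim3, a kinase gene, with an r of 0.909. Ctss was most like Suox (r = 0.988), which encodes sulfite oxidase, and Pecam1 (r = 0.984), an adhesion molecule gene. Ctsd was most like Ncf1 (r = 0.991), which encodes a subunit of the phagocyte NADPH oxidase, and Ly6e (r = 0.988). The points share libraries and depth, and the likeness of Ctss and Ctsd follows the split of deficient libraries 5 to 7 from 1 to 4.

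Other cathepsin genes were mostly silent. Of 13 listed, 3 had enough counts to be tested and 1 rose, where 29.4% of all genes did. That gene was Ctso, a cysteine protease gene, which stood at 14.5 ± 1.18 CPM in deficient cells (SD, n = 7) and 8.64 ± 0.477 CPM in regular cells (SD, n = 3), a rise of 0.66 on the log2 scale (SE 0.122, adjusted p = 0.000268, edgeR). Ctsf and Ctsg did not pass, at 0.85 and 0.39 on the log2 scale. Ctsk, the collagen-degrading cathepsin of osteoclasts, was at 0.481 CPM or less in every library. Of the placental family in rodents, Ctsj and Ctsr had 0 counts in all libraries.

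In the list of inhibitors of cathepsins and related protease inhibitors, the serpin genes Serpinb9 and Serpinb9b were far higher in the deficient cells. Cystatin genes went both ways. Of 18 listed, 13 were tested, 7 rose (53.8%) and 3 fell (23.1%), next to 29.4% and 28.6% of all genes. The median log2 fold change was 0.50 against 0.02 over all genes. Serpinb9, an inhibitor of granzyme B, stood at 310 ± 127 CPM in deficient cells and 31.1 ± 9.82 CPM in regular cells (log2 3.27, SE 0.361, adjusted p = 0.000125, edgeR). Among the deficient libraries it was 412 to 466.1 CPM in libraries 5, 6 and 7 and 202 to 222 CPM in libraries 1 to 4, and without the first 3 named the log2 fold change was 2.95 (SE 0.0997). Klrd1, a marker of CD8 T and natural killer cells, followed the same split, with 16.2 to 18.0 CPM in libraries 5, 6 and 7 and 8.04 to 9.39 CPM in libraries 1 to 4. So did the other markers of that list except Ncr1. Ncr1 read 0.721, 0.968 and 0.469 CPM in libraries 5, 6 and 7 and 0.227 to 0.996 CPM in libraries 1 to 4. The part of these markers in the Serpinb9 difference was not tested. Serpinb9b, a relative of Serpinb9, rose by 3.54 to 13.2 ± 4.30 CPM in deficient cells, against 1.08 ± 0.143 CPM in regular cells. Cstb, which encodes the cytosolic inhibitor cystatin B, rose by 0.50, at 59.5 ± 5.13 CPM in deficient and 39.8 ± 1.22 CPM in regular cells. Cst7, which encodes cystatin F, an inhibitor of cathepsin C in granules, fell by 0.53, at 183 ± 19.7 CPM in deficient and 248 ± 14.8 CPM in regular cells. Serpinb6a fell by 0.60. Ctla2b, a mouse gene related to the cathepsin L inhibitor CTLA-2 alpha, fell by 0.86 (adjusted p = 0.0128, edgeR); it missed the threshold within batch 1 at -0.90 and without regular library 2 at -0.80. Serpinb9b and Ctla2b have close relatives in the genome, so their single values are uncertain. Within batch 1 alone 4 inhibitors rose, where the full comparison had 7. In that batch 48.4% of all genes passed, in either direction.

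Among 16 sorting factors of lysosomal enzymes, all tested, 3 were called higher (18.75%) and 6 lower (37.5%), with a median of -0.25. Over all genes 29.4% were higher and 28.6% lower. M6pr, the cation-dependent mannose 6-phosphate receptor that carries cathepsins to endosomes, rose by 0.51 (SE 0.0509, adjusted p = 6.5e-07, edgeR), at 377 ± 12.1 CPM in deficient and 249 ± 8.53 CPM in regular cells. Igf2r, the cation-independent receptor with the same task, fell by 0.37 (SE 0.0714, adjusted p = 0.000447, edgeR), at 137 ± 12.4 CPM in deficient and 167 ± 5.53 CPM in regular cells. Sorl1 and Sumf1 rose by 0.54 and 0.71; Sorl1 missed the threshold within batch 1 (0.49), without regular library 3 (0.48) and without deficient libraries 5 to 7 (0.44). Psap, the precursor of saposins, and Tmem106b fell by 0.48 and 0.40.

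Of 23 subunits of the V-ATPase, the pump that acidifies lysosomes, 20 were tested, and 9 rose (45%) and 4 fell (20%), with a median of 0.24. Over all genes 29.4% rose and 28.6% fell. Atp6v1g1 rose by 1.34 (SE 0.0897, adjusted p = 8.95e-09, edgeR), at 190 ± 20.3 CPM in deficient and 70.7 ± 4.86 CPM in regular cells, and Atp6v0b and Atp6v1b2 rose by 0.85 and 0.40. The members that fell included alternative isoforms: Atp6v0e2 fell by 5.56 (SE 0.254, adjusted p = 1.37e-10, edgeR), at 0.351 ± 0.177 CPM in deficient and 15.6 ± 1.06 CPM in regular cells, Atp6v0d2 by 2.03 and Atp6v0a1 by 1.38.

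Of 40 other lysosomal hydrolases, 11 were higher (27.5%) and 13 lower (32.5%) at a median of -0.12. These shares lay near the 29.4% higher and 28.6% lower of all genes. Man2b1, a mannosidase gene, fell by 1.38 (SE 0.0804, adjusted p = 2.05e-09, edgeR), at 52.3 ± 6.04 CPM in deficient and 129 ± 9.24 CPM in regular cells; Gla fell by 0.80 and Lipa, the acid lipase gene, by 0.74. Gusb, Hgsnat and Asah1 rose by 1.07, 0.92 and 0.74. Within batch 2 alone 6 hydrolases rose and 7 fell, and without the count filter 13 rose and 7 fell. Of 26 lysosomal membrane proteins 9 rose (34.6%) and 6 fell (23.1%), next to the same shares of all genes, with a median of 0.01. Lamp1, the most abundant lysosomal membrane glycoprotein, rose by 0.49, at 112 ± 7.67 CPM in deficient and 74.8 ± 2.35 CPM in regular cells, as did Slc38a9 by 0.60 and Tmem175 by 0.88, the last not within batch 2 (0.45, adjusted p = 0.168, edgeR). Cd68, Mcoln2 and Cd164 fell by 1.88, 1.42 and 0.27, the last not without the count filter (-0.16, adjusted p = 0.159, edgeR).

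Regulators of lysosome genes went both ways. Of 18 tested genes of TFEB and nutrient sensing at the lysosome, 5 rose (27.8%) and 8 fell (44.4%), with a median of -0.08. Over all genes 29.4% rose and 28.6% fell. Rraga, a GTPase that recruits mTORC1 to the lysosome, rose by 0.88 (SE 0.0939, adjusted p = 1.22e-06, edgeR) and the Ragulator subunit genes Lamtor3 and Lamtor5 by 0.51 and 0.34. Fnip1, a partner of folliculin, fell by 0.84 (SE 0.0653, adjusted p = 4.25e-08, edgeR), the lysosomal repressor gene Zkscan3 by 0.47 and Lamtor1 by 0.42. Lamtor5 did not pass within batch 2 (0.29) or without regular library 2 (0.26), and Lamtor1 did not within batch 2 (-0.24). Within batch 2 alone 2 rose and 5 fell, and 2 rose without regular library 2.

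Granule genes and genes of the MHC class II pathway were examined because cathepsins act in both compartments. Of 10 tested granule proteases and partners, 9 were called higher and 0 lower (edgeR, the one left did not pass), with a median of 2.34. Over all genes 29.4% were higher and 28.6% lower. Gzmb, a substrate of cathepsin C, rose by 3.52, at 847 ± 269 CPM in deficient and 73.5 ± 32.1 CPM in regular cells, and the granule genes Nkg7 and Srgn by 4.63 and 0.42. The granzyme genes of this list lie in a family of close relatives. Nkg7 was 130 to 161 CPM in deficient libraries 5, 6 and 7 and 55.5 to 80.8 CPM in libraries 1 to 4, against 3.45 to 4.95 CPM in regular libraries. Without deficient libraries 5 to 7 the log2 fold change was 3.49 for Gzmb and 4.202 for Nkg7, and again 9 of the list were called higher. Markers of other cells moved with these genes: the CD8 T and natural killer sum given beside Ctsw, and mast cell and basophil markers. Of the latter, 3 of 5 tested rose, where 29.4% of all genes did. Their sum was 10.8 to 49.2 CPM in deficient libraries and 5.42 to 5.77 CPM in regular libraries. The part of either set of markers was not tested. Of 11 genes of the MHC class II pathway, 6 rose (54.5%) and 2 fell (18.2%), next to 29.4% and 28.6% of all genes, with a median of 1.08. Ifi30, the lysosomal thiol reductase, rose by 0.63 (SE 0.0937, adjusted p = 3.87e-05, edgeR), at 36.6 ± 1.91 CPM in deficient and 22.4 ± 3.79 CPM in regular cells. Cd74, the invariant chain that cathepsins S and L cut, rose by 4.91, at 21.1 ± 5.63 CPM in deficient and 0.671 ± 1.16 CPM in regular cells, and H2-DMb1 by 2.18, while H2-Ob and H2-Oa fell by 2.92 and 1.24. In regular libraries 1, 2 and 3 Cd74 read 0, 0 and 2.01 CPM, so the size of its fold change rests on values at the floor. It was 10.3 without deficient libraries 5 to 7. Without deficient libraries 5 to 7, 4 genes of this pathway fell, and without library 5 alone 4 fell too. Of 8 B cell markers, 2 were called higher and 0 lower between diets (median log2 2.21), next to 29.4% and 28.6% of all genes. H2-Ob and H2-Oa fell between the diets but split among the deficient libraries. H2-Ob read 7.51 to 9.22 CPM in libraries 5, 6 and 7 and 1.16 to 2.58 CPM in libraries 1 to 4. H2-Oa read 17.3 to 19.2 CPM in libraries 5, 6 and 7 and 7.74 to 10.9 CPM in libraries 1 to 4. The part of the B cell markers, whose sums are given beside Ctss, was not tested.

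**Figure D5:**
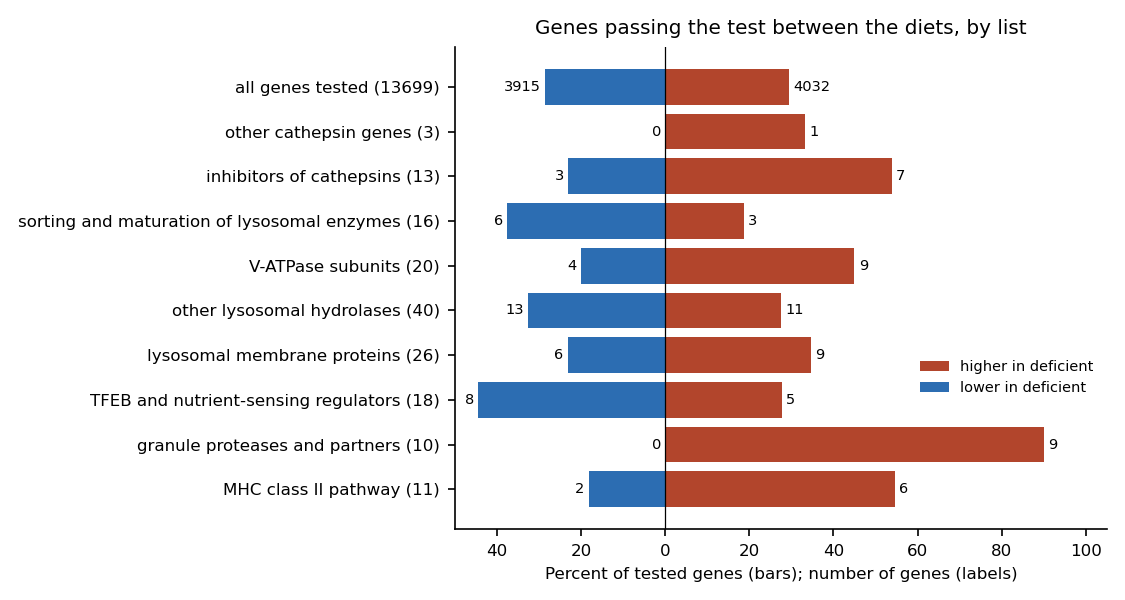
Share of tested genes that passed between the diets (edgeR, adjusted p below 0.05), higher in deficient cells to the right and lower to the left, for all genes tested and for each list; labels give the number of genes and brackets the number tested. Granule proteases stand at 9 of 10 higher, V-ATPase subunits at 9 higher and 4 lower of 20, and the hydrolases at 11 higher and 13 lower of 40, next to 29.4% higher and 28.6% lower over all genes.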

How the data were processed

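Libraries were made from total RNA with a stranded, globin-depleting kit, per the labels' protocols. The authors deposited raw read counts per Ensembl gene, 1 column per library; STAR 2.7.10a and HTSeq 0.13.5 on GRCm38 are named in the submitters' processing notes, and the strand setting is not given in the sources used here. Symbols, exon lengths and coordinates came from GENCODE M21 (GRCm38), which matched 49412 of 49671 IDs.

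Counts were filtered (filterByExpr, minimum count 10), scaled by TMM and fitted with edgeR 4.0.16 in R 4.3.3 (quasi-likelihood, robust) with terms for diet and batch; the threshold was an adjusted p of 0.05 (Benjamini-Hochberg, all genes tested). Standard errors are the log2 fold change divided by the root of F. CPM use plain library totals. The steps were tested on simulated counts. Alternatives used DESeq2 1.42.0, limma-voom (limma 3.58.1), other scalings and filters, no batch term, each batch alone and fewer libraries. Figures used matplotlib 3.10.9.

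The members and lists were chosen with earlier results of these data known. Named pathway genes are, per list, up to 3 in each direction of smallest adjusted p. Likeness used log2(CPM + 0.5).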

Additional observations from a re-analysis of the deposited data

Results flagged for a closer look

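In 3 of the 55 genes checked (the cathepsin genes and the named pathway genes), 1 deficient library lay far from the other 6, with a gap to its nearest neighbour of more than 0.568 of the whole range; chance flags about 5% of groups. Ctsb was lowest in deficient library 4 at 40.9 CPM, with a gap of 0.619 of the range. Ctsl was highest in deficient library 7 at 34.0 CPM, with a gap of 0.604 of the range. Lamtor3, a Ragulator subunit gene, was highest in deficient library 4 at 48.3 CPM, with a gap of 0.654 of the range.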

How the results depend on the processing

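The number of genes called between the diets stayed within 1.5 times of 7947 under all 22 alternatives, and leaving out 1 library gave 6811 to 8096. Between batch 2 and batch 1, 0 genes passed, but 183 did without the count filter and 0 to 692 with 1 library left out. Among deficient libraries these numbers were 0, 365 and 0 to 1764, and for the product of diet and batch 0, 4 and 0 to 167; the highest value came without deficient library 5 each time, and the cause was not tested. The product term could not be fitted without regular library 3. The cathepsin genes were chosen from the diet comparison, so their calls in it are no sign of stability: Ctsd was not past the threshold within batch 1 nor without regular library 3, and Ctsz was with total count scaling (0.19) and without the filter (0.21). Ctsa (-0.03 to 0.17) and Ctsb (-0.24 to 0.00) crossed or reached 0. Total count scaling and no filter moved the median of all genes to 0.10 and 0.19. The pathway genes named kept their direction, and 10 of their values lost the threshold, while 979 did not. No paired analysis was possible because the labels give no replicate numbers. Regular libraries limit the precision of Ctsh and Ctsw, with 7 to 14 reads each.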
